A study of Mus musculus with 9 samples.

Results

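The RNA of mouse heart muscle cells was described from 3 blank control libraries, the baseline group of a study of 9 libraries on the long noncoding RNA Firre. The members were chosen by the sample label alone (the blank control, library names NC1 to NC3), and all 3 of 3 entered. Each library held total RNA taken with TRIzol from isolated cardiomyocytes, the contractile cells of the heart. The labels describe no vector or other treatment for this group, and they give no strain, sex, age or culture time. The replicates are labelled biological, but whether they came from separate animals or cultures is not said, so an SD below is a spread over 3 libraries that may be technical. The other groups of the study, labelled as a negative control and as Firre overexpression and made with AAV9 vectors, were not compared here. Firre itself had 34.2, 37.7 and 30.5 CPM (gene counts scaled to a library total of 1000000) in the blank libraries.

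A mouse cardiomyocyte is known to exchange a fetal set of proteins for a postnatal set around birth: alpha myosin heavy chain takes over from beta in the ventricle, cardiac troponin I replaces the slow skeletal form, fatty acid oxidation overtakes glycolysis, and most cells leave the cell cycle. Many of these exchanges are between paralogous genes, so the share that each member takes of its pair is a common reading of how mature such cells are. In the intact heart cardiomyocytes also lie among fibroblasts, endothelial cells, mural cells, epicardial cells and macrophages, whose transcripts appear in bulk RNA wherever those cells are carried along. In bulk counts a smaller number of cells of a type and less RNA per cell cannot be told apart.

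Values are in CPM, given for replicates 1, 2 and 3 in that order and as mean ± SD (n = 3). Because a longer transcript yields more fragments, transcript levels of different genes were compared as CPM per kb, the CPM divided by the length of the union of the gene's exons. Where genes or lists are ordered by CPM, by a sum of CPM or by a share of counts, the order is of counts and not of transcripts. Counts in genes totalled 15591542, 20193373 and 17362352, and 13326 genes reached 1 CPM in all 3 libraries, of which 12289 were protein coding. Protein-coding genes numbered 21974 in all, detected or not. The median of the 13326 genes was 5.75 CPM per kb, which serves as the reference level below. By its definition about 50% of the detected genes lie above that level. Protein-coding genes took 97.7% ± 0.0537 of the counts, genes of chromosome M 6.498% ± 0.288, while the top 10 genes held 9.88% ± 0.268. About 740 genes (729, 754 and 738) held 50% of the counts.

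Marker genes of the cell type named in the label are given first. Their list was written by hand with earlier results of these data known, so it is no check of the label. All 20 cardiomyocyte markers listed were above 100 CPM on average, from Nkx2-5, the homeodomain factor of the early heart, at 91.5, 109 and 123 CPM to Myh6 at 15146, 15287 and 16476 CPM. Tnnt2, cardiac troponin T, stood at 8379.9, 7170.2 and 7843 CPM. Nppa, the gene of atrial natriuretic peptide, stood at 3998, 3633 and 3830.4 CPM and Myh7, beta myosin heavy chain, at 282, 229 and 238 CPM. The same libraries held much matrix RNA. Fn1, the fibronectin gene, had 7018, 6574 and 6145 CPM and Col1a1, a chain of fibrillar type I collagen made chiefly by fibroblasts, 4110.5, 4284 and 4550.0 CPM. Per kb of exon Fn1 and Col1a1 stood at 563 ± 37.4 and 657 ± 33.7 CPM per kb, below Myh6 (2325 ± 109) and Nppa (4417 ± 211) and above Myh7 (28.98 ± 3.25). The median was 391 CPM per kb over the cardiomyocyte list and 57.5 over the fibroblast list.

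Genes of the contractile apparatus, of mitochondrial respiration and of the extracellular matrix filled the top of the list. Of the 25 genes with the most counts, 6 are encoded by the mitochondrial genome, led by the cytochrome oxidase gene mt-Co1 at 26451, 25066 and 23185 CPM. A further 8 belong to the heart muscle lists, with the listed cytoskeletal actin Actb set apart. Beside Myh6, Tnnt2, Actc1 and Nppa these were Tpm1, the main tropomyosin of heart muscle (4549 ± 277 CPM), the giant spring protein gene Ttn (3162 ± 519 CPM), Atp2a2, which pumps calcium back into the sarcoplasmic reticulum (3013 ± 182 CPM), and Ankrd1, a stress-responsive partner of titin (2842 ± 15.997 CPM). Another 8 belong to the matrix list, among them Fn1, Col1a1, Col1a2, the basement membrane collagens Col4a1 (4056 ± 24.4 CPM) and Col4a2, the thrombospondin gene Thbs1 (3930.2 ± 107 CPM) and Sparc, a matrix-binding glycoprotein (3410.0 ± 145 CPM). The elongation factors Eef1a1 and Eef2 and the cytoskeletal actin Actb made up the rest.

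**Figure D1:**
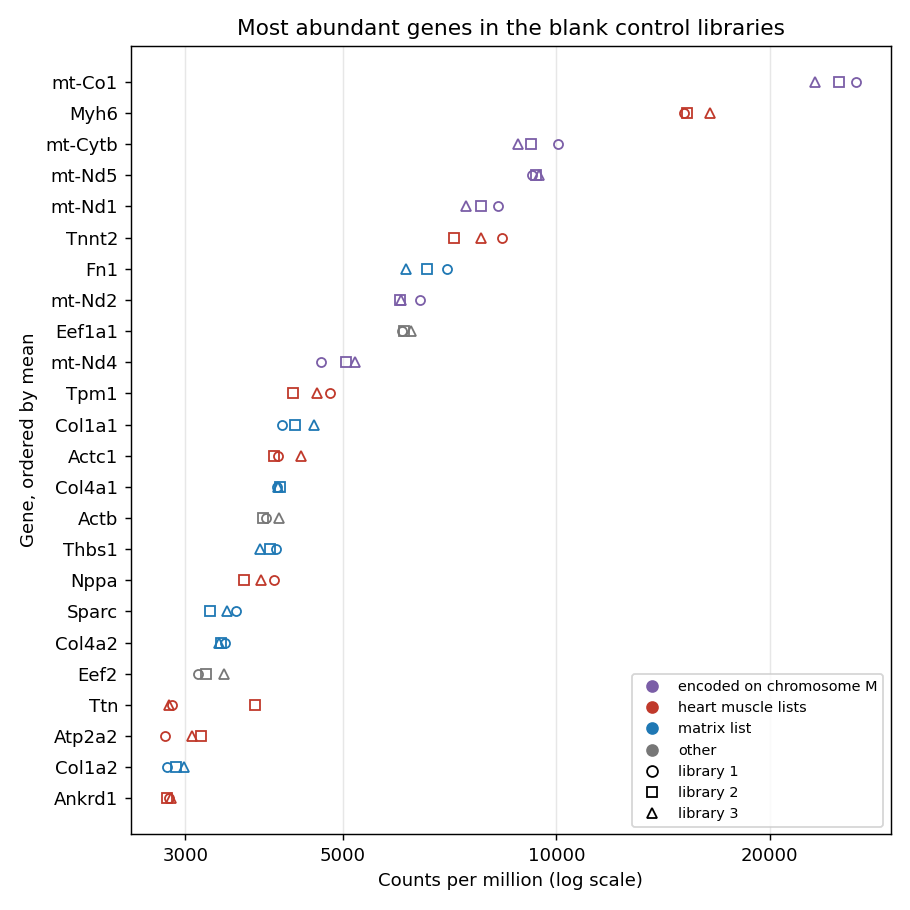
CPM (x axis, log scale) of 24 of the most abundant genes (y axis), with 1 symbol per blank control library and colour for the gene's class. The order of genes is by the mean, from mt-Co1 at 24901 ± 1639 CPM down to Ankrd1 at 2842 ± 15.997 CPM, and for most genes the 3 symbols lie close together, Ttn being an exception with 2877, 3761 and 2847 CPM.

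Per kb of exon the order changed. The 15 highest genes were mt-Co1 (16117 ± 1061 CPM per kb) and 5 more mitochondrial genes, Nppa (4417 ± 211), Actc1 (2559 ± 119), Eef1a1 (2459 ± 40.2), Myh6 (2325 ± 109), Actb, the ribosomal protein genes Rplp1 and Rpl41, a processed pseudogene (Gm13394, 1159 ± 70.4) and a 57-bp gene annotated as a miRNA, Gm23935, whose level of 5332, 10597 and 10665 CPM per kb was the least even of the 15. By this length, Nppa had the highest level per kb of any nuclear protein-coding gene in these libraries. The order rests on the union of exons, and other lengths were not tried for it. By counts Nppa ranked 17 among all genes. The pseudogene had 88.9% of its 100-base words in other genes, most of them in Gm7336. That gene also shared most words with Gapdh, a glycolytic enzyme widely used as a reference, of whose words 20.9% lay elsewhere and which had 91.8, 50.3 and 91.8 CPM. These counts hold reads that aligned to a single place, so levels of genes with near-identical copies are uncertain, and Gapdh, named here after its value was seen, is an example.

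By function, the lists of thick filament, thin filament and Z-disc genes (61 genes) took 6.302% ± 0.122 of all counts. Collagens and the matrix list (56 genes) took 4.24% ± 0.0635, the 84 cytosolic ribosomal protein genes 2.93% ± 0.132. The shares of the 3 libraries were 6.29, 6.18 and 6.43 percent for the first and 4.31, 4.22 and 4.18 percent for the second. These ranges do not overlap: the share of the 61 filament and Z-disc genes was above that of the 56 collagen and matrix genes in each library. The lists were written by hand, and the order is of these sets of genes only. The filament lists are not confined to heart muscle genes, and they count the cytoskeletal actin Actb. The first share is therefore not one of heart muscle alone.

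Myosin heavy chain, the motor of the thick filament, was almost wholly of the alpha form. Myh6 (ENSMUSG00000040752, chromosome 14, 54941921 to 54966927 in mm10, minus strand) had 2252, 2273 and 2449.6 CPM per kb, and its neighbour Myh7 (ENSMUSG00000053093, chromosome 14, 54970684 to 54994626, minus strand) had 32.7, 26.6 and 27.6 CPM per kb. Myh6 made up 98.6, 98.8 and 98.9 percent of the pair, a mean of 98.8% ± 0.171 (SD, n = 3), or 80.98 ± 10.6 times Myh7 per kb of the union of exons. The ratio is lower with other lengths, as the share was 98.45% with the longest transcript and 98.42% without a length correction. Of the 8 sarcomeric heavy chain genes measured, Myh7b, the gene that hosts miR-499, took 0.0294% ± 0.00517 per kb, and the embryonic, perinatal and fast skeletal chains Myh3, Myh8, Myh1 and Myh2 took less than Myh7b. Myh4 had 0 counts, which allows at most 0.0564 CPM over the 3 libraries. The 2 cardiac genes share 10.04% of the 100-base words of Myh6, so some reads of each could not be assigned.

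Troponin I and troponin T, the inhibitory and the tropomyosin-binding subunits of the thin filament switch, were mostly of the cardiac form. The cardiac gene Tnni3 had 789.9, 712 and 831 CPM and the slow skeletal gene Tnni1, the fetal form, 67.99, 70.9 and 80.2 CPM, which made Tnni3 94.9% ± 0.366 of the pair per kb. Tnnt2 was 99.7% ± 0.0611 of its pair with the slow skeletal gene Tnnt1 (6.19 ± 1.29 CPM). The fast skeletal genes Tnni2 and Tnnt3 had 3.94 ± 0.523 and 3.33 ± 0.665 CPM, and Tnnc2, fast skeletal troponin C, had 1 count in 1 library.

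Among the muscle actins, cardiac alpha-actin led and smooth muscle alpha-actin followed. Actc1 had 4057, 4004 and 4361 CPM, Acta2 1925, 1712 and 1845 CPM and the skeletal form Acta1 15.1, 17.6 and 19.6 CPM. Per kb Actc1 took 74.7% ± 1.16 of the 4 muscle actins, Acta2 24.3% ± 1.18, the smooth muscle gamma form Actg2 0.6397% ± 0.0276 and Acta1 0.331% ± 0.0373. Actc1 exceeded Acta1, which the fetal and the overloaded mouse heart is known to raise, by 227 ± 23.6 times. No 100-base word of Actc1, Acta1 or Acta2 occurred in another gene. Acta2 is shared between smooth muscle, myofibroblasts and immature cardiomyocytes, and bulk counts do not say in which of them it lay. Tpm1 was 91.8% ± 0.121 of its pair with Tpm2, and among 4 tropomyosins Tpm4, a form of non-muscle cells, took 31.8% ± 0.9298 per kb.

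The promoters of both pairs of paralogs, the cardiac heavy chains and the striated muscle actins, are shown because in each pair the proteins are closely related and 1 gene held over 90% of the level per kb. Each holds the 250 bases before the RefSeq transcription start in GRCm38.p6 (mm10), 5′ to 3′ on the gene's strand, less the 34 bases nearest the start in Myh6 and 12 in Actc1 that lie in a GENCODE exon. The RefSeq start lies 320 bases from the GENCODE gene start in Myh6, 673 in Actc1, 24 in Acta1 and 0 in Myh7. The windows of Myh6 and Actc1 thus lie inside the gene as GENCODE draws it. Capitals mark matches to the TATA motif (TATAAA, sense strand) and, on both strands, the GATA motif (AGATAA), the MCAT motif (CATTCC) and the CArG box, the site of serum response factor.
Myh6 (chr14:54966642-54966857, minus strand): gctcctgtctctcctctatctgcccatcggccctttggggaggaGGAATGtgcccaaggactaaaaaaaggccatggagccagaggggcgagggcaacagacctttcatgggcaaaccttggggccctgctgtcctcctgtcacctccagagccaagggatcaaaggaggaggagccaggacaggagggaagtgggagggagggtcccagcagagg
Myh7 (chr14:54994627-54994876, minus strand): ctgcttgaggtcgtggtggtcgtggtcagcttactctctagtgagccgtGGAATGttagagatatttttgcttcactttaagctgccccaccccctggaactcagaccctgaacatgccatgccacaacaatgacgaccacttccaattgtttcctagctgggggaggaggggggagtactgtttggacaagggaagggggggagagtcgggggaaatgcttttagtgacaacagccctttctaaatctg
Actc1 (chr2:114052888-114053125, minus strand): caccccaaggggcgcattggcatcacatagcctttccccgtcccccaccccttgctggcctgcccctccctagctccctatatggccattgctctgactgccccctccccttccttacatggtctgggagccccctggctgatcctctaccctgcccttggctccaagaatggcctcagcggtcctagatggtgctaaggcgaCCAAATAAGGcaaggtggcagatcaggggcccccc
Acta1 (chr8:123894776-123895025, minus strand): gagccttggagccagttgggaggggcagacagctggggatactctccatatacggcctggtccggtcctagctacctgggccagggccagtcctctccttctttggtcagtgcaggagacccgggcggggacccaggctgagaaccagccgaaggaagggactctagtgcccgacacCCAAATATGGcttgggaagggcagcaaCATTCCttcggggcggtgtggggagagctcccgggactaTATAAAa

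Both heavy chain promoters held 1 MCAT match, which begins 206 bases before the start in Myh6 and 201 in Myh7, and neither held a TATA, GATA or CArG match in these 250 bases. Both actin promoters held 1 CArG match, at 47 bases in Actc1 and 73 in Acta1, and Acta1 also held an MCAT match at 46 bases and a TATA match at 7. Of 32851 promoters of 250 bases in the RefSeq table, 7.59% held the TATA motif, 9.99% the GATA motif, 12.6% the MCAT motif and 1.47% the CArG box. The matches did not overlap. They describe letters in the window and carry no measure of binding.

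Light chains of atrial and ventricular type lay side by side. Myl2 and Myl3, the ventricular regulatory and essential light chains, had 933, 923 and 998 CPM and 804, 826 and 856 CPM. The atrial forms Myl7 and Myl4 had 333, 329 and 358 CPM and 429, 434 and 459 CPM. Per kb of the union of exons Myl7 (577 ± 26.98) stood above Myl2 (488 ± 20.9) in each library and Myl2 made up 45.8% ± 0.09496 of the pair, while Myl3 made up 81.01% ± 0.158 of its pair. The order of the regulatory light chains depends on the length used: with the longest transcript in place of the union of exons Myl2 made up 65.0%, and without a length correction 73.7%. Both genes were therefore abundant, with no order that holds under every length.

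Other chamber markers were likewise present on both sides. Of 16 atrial markers 15 reached 1 CPM in all 3 libraries and 12 lay above the reference level per kb. Most of the list's counts fell to Nppa, Pam, the enzyme that amidates peptides and a major protein of atrial granules (1738 ± 87.4 CPM), the light chains and Gja5, connexin 40 (167 ± 4.49 CPM). Tbx5, a T-box factor of atria and the left ventricle, had 77.1, 74.1 and 75.97 CPM. Of 11 ventricular markers 10 reached 1 CPM and 7 lay above the reference level, with Pln, phospholamban, at 1563 ± 52.03 CPM and the Iroquois factors Irx3 and Irx5 at 85.3 ± 10.99 and 27.97 ± 4.12 CPM. The median was 17.9 CPM per kb for the atrial list and 9.25 for the ventricular list, above 79.8% and 63.7% of detected genes. About 50% of detected genes lie above the reference level by its definition, so the 7 of 11 are close to that share. The libraries do not say whether these transcripts came from the same cells.

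Sln, sarcolipin, which inhibits the calcium pump in atrial muscle, had 67.6, 70.4 and 71.3 CPM and Pln, its ventricular counterpart, 1601, 1583 and 1503 CPM. Pln made up 91.4% ± 0.457 of the pair per kb. An opposite-strand annotation covers 64.7% of the exons of Pln, and whether the counting used strand is not stated.

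The genes of calcium release and reuptake were those of heart muscle. Of 29 genes listed, 25 reached 1 CPM in all libraries and 17 lay above the reference level per kb. Atp2a2 (2809.8, 3161 and 3068 CPM) was 99.98% ± 0.00752 of its pair with the fast skeletal pump Atp2a1. Ryr2, the cardiac calcium release channel (984, 1119 and 975 CPM), was 99.8% ± 0.0991 of its pair with Ryr3. Casq2, the cardiac calcium store protein, made up 93.7% ± 0.687 of its pair with the skeletal gene Casq1, which was present at 17.6, 16.1 and 20.1 CPM. Slc8a1, the sodium-calcium exchanger, had 662 ± 63.5 CPM and Srl, sarcalumenin, 413 ± 4.58 CPM.

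The pore of the L-type calcium channel was Cacna1c (196 ± 3.72 CPM), 98.7% ± 0.342 of its pair with Cacna1d. The T-type channels Cacna1g and Cacna1h, which ventricular muscle is known to lose after birth, had 18.98, 18.2 and 19.2 CPM and 7.696, 7.13 and 6.97 CPM. Kcnh2, the pore of the rapid delayed rectifier, had 162, 165 and 175 CPM.

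Kcnj2 and Kcnj12, which carry the inward rectifier current that holds the resting potential, had 18.9, 22.9 and 16.99 CPM and 16.7, 15.9 and 18.3 CPM or 3.599 ± 0.558 and 6.17 ± 0.449 CPM per kb, near the reference level of 5.75. Their order depends on the length used, since Kcnj2 was 36.8% ± 5.14 of the pair per kb and 53.4% by counts. Kcnd2 and Kcnd3, the pores of the transient outward current, had 6.89 ± 0.847 and 0.587 ± 0.3399 CPM. The pacemaker channel genes Hcn2 and Hcn4 had 14.8, 19.8 and 23.2 CPM and 3.91, 3.81 and 5.18 CPM. Hcn2 made up 89.4% ± 1.496 of the pair per kb.

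Genes of the intercalated disc, the junction between cardiomyocytes, were abundant, with all 12 listed above 10 CPM. N-cadherin (Cdh2) had 870.1 ± 36.6 CPM, desmoplakin (Dsp) 830.1 ± 29.1 CPM and connexin 43 (Gja1) 794 ± 24.98 CPM. Gja1 made up 72.7% ± 1.16 of its pair with the atrial and conduction connexin Gja5 and 84.6% ± 0.658 of its pair with Gjc1.

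**Figure D2:**
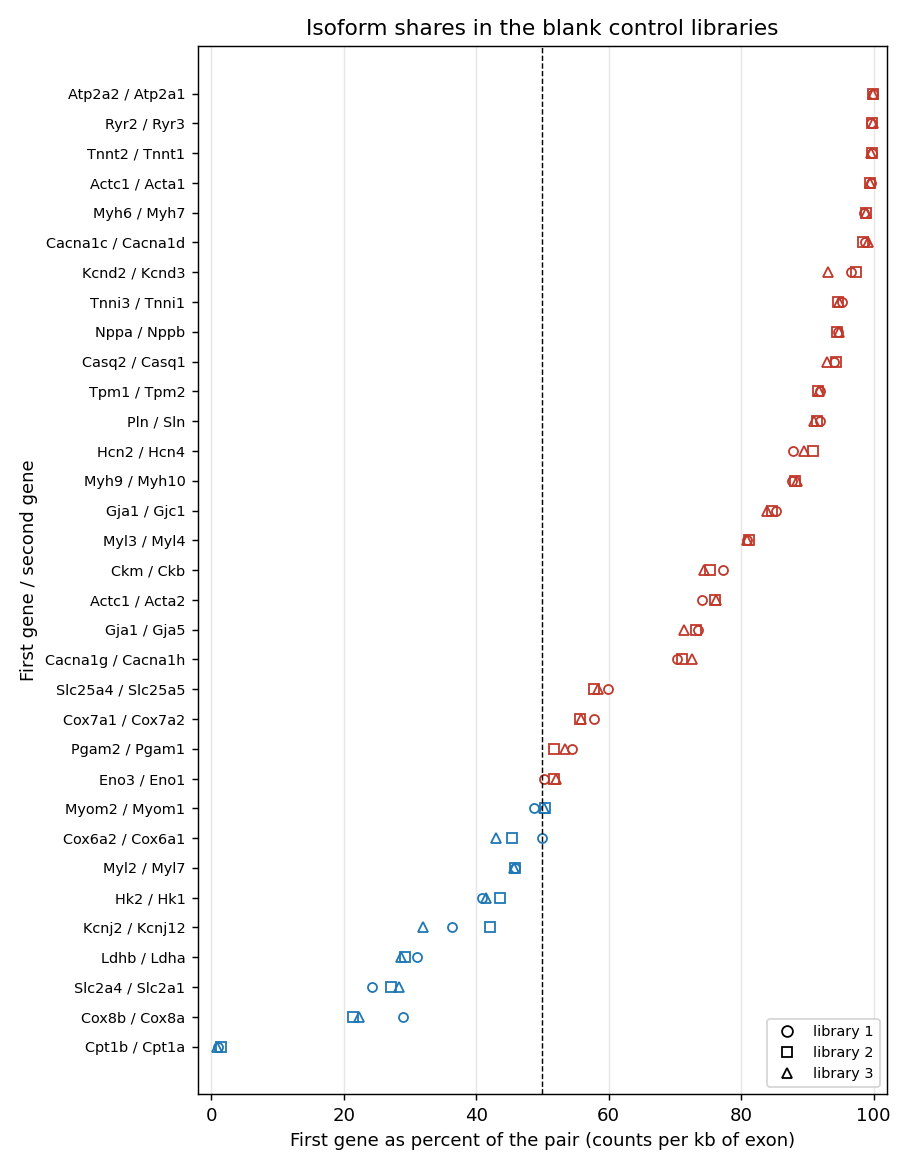
Share of the first gene in each of 33 pairs of related genes (x axis, percent of the pair in counts per kb of exon), with 1 symbol per library, red where the mean is above 50% and blue where it is below. The first gene led in 24 of these pairs, from Atp2a2 at 99.98% ± 0.00752 down to Eno3 at 51.4% ± 0.977, and of the pairs drawn Myom2 with Myom1 alone changed order between libraries. Without a length correction Eno3 (25.4%), Pgam2 (32.5%) and Cox7a1 (42.4%) fell below 50%, and Myl2 (73.7%) and Kcnj2 (53.4%) rose above it.

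Of all 36 pairs examined, 27 were led by the first gene and 35 had the same order in all 3 libraries. The exception was the myomesins of the M-band, the line that crosslinks thick filaments: Myom2, which the postnatal heart adds, was 48.8, 50.4 and 50.3 percent of its pair with Myom1 in the 3 libraries, a mean of 49.8% ± 0.913. Without replicate 1 its mean was 50.4%. The SD of a pair's share was at most 5.14 percentage points over the 36 pairs, the highest belonging to Kcnj2.

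Natriuretic peptides were abundant, the atrial form above the brain form. Nppa (ENSMUSG00000041616, chromosome 4, 148000722 to 148002079, plus strand) had 4621, 4201 and 4428 CPM per kb and Nppb (ENSMUSG00000029019, chromosome 4, 147985788 to 147987205, plus strand), its neighbour, 263, 246 and 246 CPM per kb. Nppa made up 94.6% ± 0.132 of the pair. An opposite-strand annotation (Gm13054) covers 61.5% of the exons of Nppa. Corin and Furin, the proteases that mature these peptides, had 14.7 ± 0.642 and 288 ± 9.64 CPM, and Nppc, the C-type peptide of endothelium, had 0 counts. The clearance receptor Npr3 stood at 80.3 ± 6.15 CPM and Npr2, the receptor of the C-type peptide, at 58.3 ± 0.836 CPM.

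Lists of postnatal and fetal heart genes were both well represented. Of 37 genes of the postnatal list, 35 reached 1 CPM in all libraries and 32 lay above the reference level, at a median of 54.5 CPM per kb. Of 30 genes of the fetal list, 28 reached 1 CPM and 18 lay above the reference level, at a median of 11.8 CPM per kb. All genes at 1 CPM or more had a median of 5.75, and 93.8% of them lay below the postnatal median and 70.3% below the fetal median. The lists were chosen by hand with results of these data known, so the medians are a description.

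In the postnatal list Mb, myoglobin, had 1010.3, 931 and 916 CPM, Hspb7, a small heat shock protein of heart muscle, 1053, 1037 and 1105 CPM, and Lpl, the lipase that releases fatty acids from lipoproteins, 505, 513 and 462 CPM. The muscle creatine kinase Ckm made up 75.7% ± 1.47 of its pair with the brain form Ckb. At the low end, the muscle carnitine palmitoyltransferase Cpt1b had 7, 14 and 6 counts in the 3 libraries. Another gene on the same strand covers 81.4% of its exons, and its reads would then count as ambiguous, so Cpt1b and its share of 1.07% with the liver form Cpt1a (104 ± 4.15 CPM), or 0.475% by counts, are uncertain.

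In the fetal list, next to Nppa, Ankrd1 and the atrial light chains, Tnc, a matrix protein of the developing and injured heart, had 459, 426 and 430.4 CPM and Hk1, the fetal hexokinase, 419.5, 413 and 448 CPM. Hmga2, a chromatin protein of embryonic and proliferating cells, had 209.7, 214 and 200.1 CPM, and the imprinted RNA H19 104, 86.9 and 76.5 CPM. Hbb-y, the embryonic globin, had 0 counts. The RNA-binding protein gene Lin28b was near 0 at 0.434 ± 0.225 CPM. Igf2, the growth factor encoded beside H19, had 4.105, 3.52 and 3.398 CPM, but another annotation on the same strand covers 62.8% of its exons and the value is uncertain. Hmga2, Lin28b and Igf2 were named after their values were seen.

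**Figure D3:**
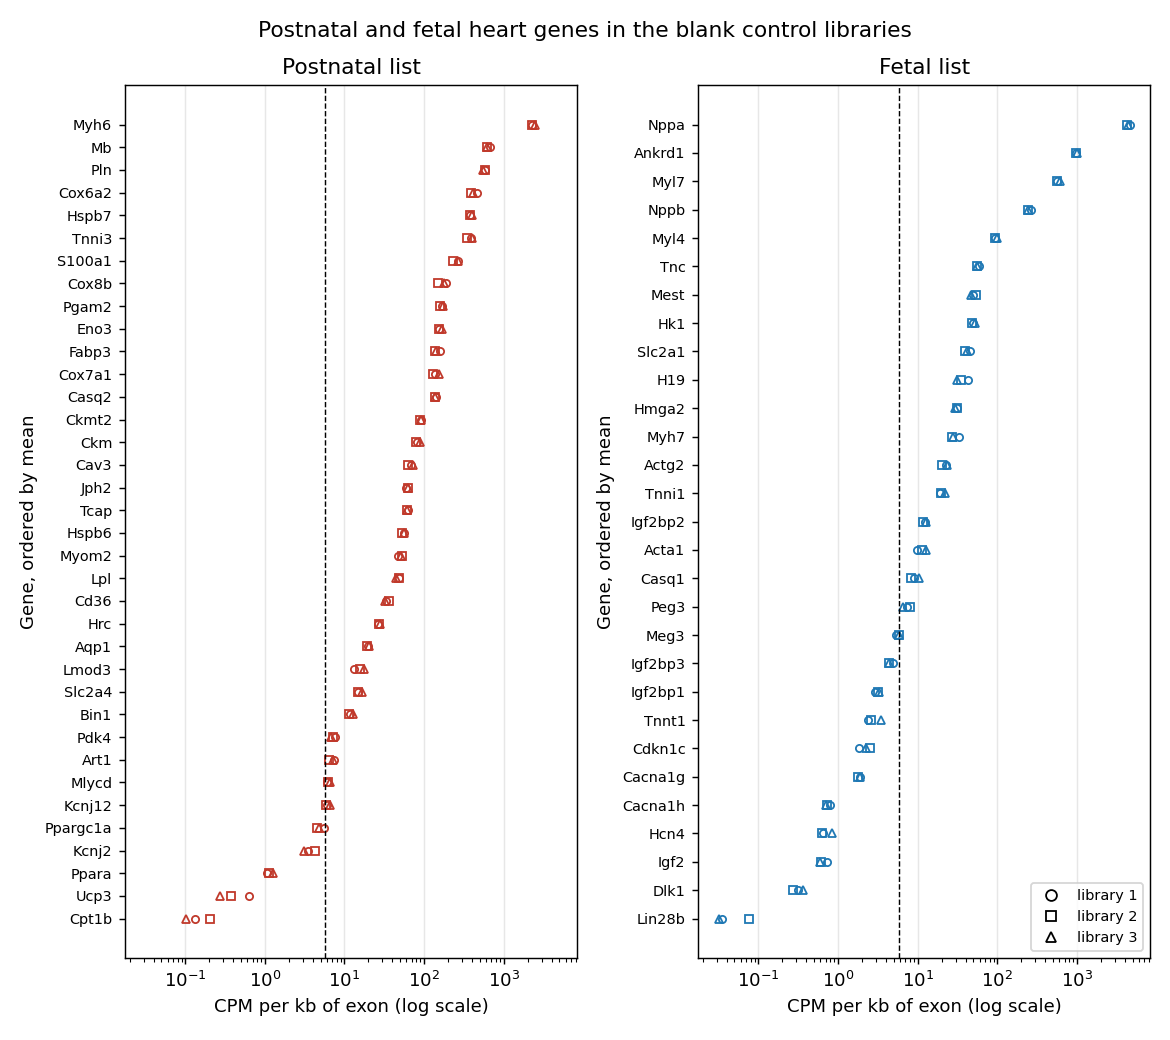
Levels in CPM per kb of exon (x axes, log scale) of the postnatal list (left) and the fetal list (right), with 1 symbol per library and genes ordered by mean. Genes or libraries at 0 counts are not drawn, and the dashed line marks 5.75 CPM per kb, the median of all genes at 1 CPM or more. Most genes of the left panel lie right of the line, and the symbols of low genes such as Cpt1b and Lin28b lie far apart.

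Genes of both glycolysis and fatty acid oxidation were present, the former at a higher median per kb. All 23 glycolysis genes reached 1 CPM, at a median of 111 CPM per kb, and 24 of 26 fatty acid oxidation genes did, at a median of 16.4 CPM per kb. In the glycolytic list the most counts fell to pyruvate kinase Pkm (1955, 1728 and 1770.3 CPM), aldolase Aldoa (1722, 1716 and 1805 CPM) and lactate dehydrogenase Ldha (1288, 1278 and 1382 CPM), and in the fatty acid list to Lpl, Hadha, a subunit of the mitochondrial trifunctional protein (316, 306 and 329.8 CPM), and Acadl, a long-chain dehydrogenase (285, 281 and 292 CPM). The medians in the 3 libraries were 110.0, 112 and 108 CPM per kb for glycolysis and 15.9, 16.4 and 16.9 CPM per kb for fatty acid oxidation. All 3 libraries had the same order. Both processes also run in the other cell types present.

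The isoforms of these enzymes were of mixed type. The glucose transporter of insulin-responsive muscle, Slc2a4, was 26.6% ± 2.095 of its pair with the fetal and ubiquitous Slc2a1. Ldhb, the heart form of lactate dehydrogenase, was 29.7% ± 1.28 of its pair, and the muscle hexokinase Hk2 41.99% ± 1.48. The muscle enolase Eno3 (51.4% ± 0.977) and phosphoglycerate mutase Pgam2 (53.2% ± 1.36) were near equal to their ubiquitous forms. By counts without a length correction these fell to 25.4% and 32.5%, so no order is given. Ldhb fell to 16.7% by counts and stood at 21.8% with the longest transcript, below 50% in each case. The ubiquitous forms Eno1 and Pgam1 also share 20.4% and 33.9% of their words with copies.

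For cytochrome oxidase, the last complex of the respiratory chain, the heart isoforms of 3 subunits were set beside the ubiquitous ones. Cox6a2 was 46.1% ± 3.52 of its pair, Cox7a1 56.5% ± 1.19 and Cox8b 24.2% ± 4.14. Cox7a1 stood at 49.999% with the longest transcript and 42.4% by counts, so its order is not settled. Cox8b stood at 15.7% by counts. The muscle ADP/ATP carrier Slc25a4 was 58.7% ± 1.06 of its pair with Slc25a5, the form of proliferating cells. The ATP synthase genes Atp5b (2444 ± 53.8 CPM) and Atp5a1 (1535 ± 47.4 CPM) had the most counts of the 21 nuclear genes of respiration and energy transfer listed.

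Regulators of mitochondrial biogenesis were at low to middle levels, with 12 of 12 above 1 CPM, 3 above the reference level per kb and a list median of 3.93 CPM per kb. The nuclear receptor Esrra had 59.3 ± 3.198 CPM and the coactivator Ppargc1a 32.5 ± 3.36 CPM. Gabpa, the DNA-binding subunit of nuclear respiratory factor 2, had 70.99 ± 4.47 CPM.

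Counts of the mitochondrial messages differed widely. mt-Cytb, mt-Nd5, mt-Nd1 and mt-Nd2 had 9359 ± 627, 9350.1 ± 95.3, 7855 ± 411 and 6165 ± 228 CPM. mt-Co2, mt-Co3 and mt-Atp6, which are transcribed from the same strand, had 208, 92.9 and 242 CPM, 135, 54.3 and 40.8 CPM and 134, 49.6 and 50.3 CPM. These 3 genes had 99.5%, 99.9% and 99.5% of their 100-base words in other annotated genes, against 0% for mt-Cytb, mt-Nd5 and mt-Nd1 and 3.19% for mt-Nd2. The shares were 30.8% for mt-Co1, with the most counts of all genes, and 60.8% for mt-Nd4 (4972 ± 283 CPM). Reads that align to more than 1 place made up 7.44% to 7.98% of all counts and were not assigned, and their part in the low values was not tested. The 2 mitochondrial rRNAs took 0.16005% ± 0.00799 of the counts.

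Cell cycle genes were expressed. All 25 genes of mitosis reached 10 CPM, at a median of 8.099 CPM per kb, and all 20 of DNA replication reached 1 CPM, at a median of 7.29 CPM per kb. The proliferation antigen gene Mki67 had 158, 149 and 156 CPM, Top2a, a topoisomerase of dividing cells, 113, 122 and 116 CPM, and Anln, anillin of the cleavage furrow, 109, 105 and 98.8 CPM. Rrm1, a subunit of ribonucleotide reductase, had 152, 154 and 155 CPM and Pcna, the replication clamp, 65.997, 66.4 and 66.4 CPM. The mitosis list summed to 1192, 1164 and 1139 CPM.

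Among cyclins and inhibitors, Ccnd2 (337, 382 and 331 CPM) and Ccnd1 (135, 138 and 131 CPM), the D cyclins of the G1 phase, and the kinase gene Cdk4 (206 ± 14.7 CPM) stood beside the inhibitor gene Cdkn1a (232, 217 and 218 CPM). The tumour suppressor gene Trp53 had 116 ± 7.15 CPM. Which cells carried these transcripts is not known from bulk counts. Markers of fibroblasts, which divide in culture, were present in the same libraries (21 of 21 at 1 CPM or more, summed level 21893, 21445 and 21512 CPM), and their part in the cell cycle values was not tested.

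Of the marker lists for other cell types, that of fibroblasts had the highest median per kb. All 21 fibroblast markers reached 1 CPM and 20 lay above the reference level per kb, at a median of 57.5 CPM per kb against 391 for the cardiomyocyte list. Beside Fn1 and the type I collagens, the intermediate filament gene Vim had 1898, 1888 and 1974 CPM, the elastic fibre gene Fbln2 2119.8, 2022 and 2030.1 CPM, periostin (Postn) 875, 843 and 875 CPM and decorin (Dcn) 856, 754 and 795 CPM. Pdgfra, the receptor that marks heart fibroblasts, had 126, 115 and 111 CPM and Tcf21, their transcription factor, 42.97, 34.1 and 31.5 CPM. Fap, of activated fibroblasts, had 1.36 ± 0.329 CPM. All 20 genes of the matrix list were above 100 CPM, including the crosslinking enzyme gene Lox (1279 ± 88.9 CPM) and, outside the first 6 of the list, the YAP-responsive genes Ccn2 and Ccn1 (1638 ± 29.7 and 584 ± 19.8 CPM).

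Endothelial, mural and epicardial genes were present, at lower list medians. Of 18 endothelial markers 17 reached 1 CPM, at a median of 8.45 CPM per kb, with VE-cadherin (Cdh5) at 292, 278 and 280.5 CPM, Pecam1 at 133, 137 and 129 CPM and the clotting glycoprotein gene Vwf at 87.9, 85.1 and 87.9 CPM. Cldn5 and the lymphatic marker Lyve1 were near the threshold (1.08 ± 0.363 and 1.59 ± 0.403 CPM). The summed levels were 1784 ± 32.8 CPM for the endothelial list, 4418 ± 154 for the smooth muscle and pericyte list and 496 ± 24.4 for the epicardial list. Of 15 smooth muscle and pericyte markers all reached 1 CPM, at a median of 21.9 CPM per kb; Acta2, Tagln (732 ± 36.96 CPM) and Des (754 ± 38.2 CPM), which other cells also make, took the most counts, while Myh11, the myosin of differentiated smooth muscle, had 27.1, 23.9 and 26.3 CPM and the pericyte gene Rgs5 8.08, 6.73 and 10.1 CPM. All 13 epicardial and mesothelial markers reached 1 CPM, at a median of 9.42 CPM per kb, from Muc16 (3.87 ± 0.926 CPM) to Lrrn4 (97.7 ± 8.64 CPM), with Wt1, the epicardial zinc finger factor, at 26.1, 30.2 and 27.8 CPM, Tbx18 at 68.1, 66.9 and 63.9 CPM and Upk3b at 42.8, 40.8 and 40.3 CPM.

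**Figure D4:**
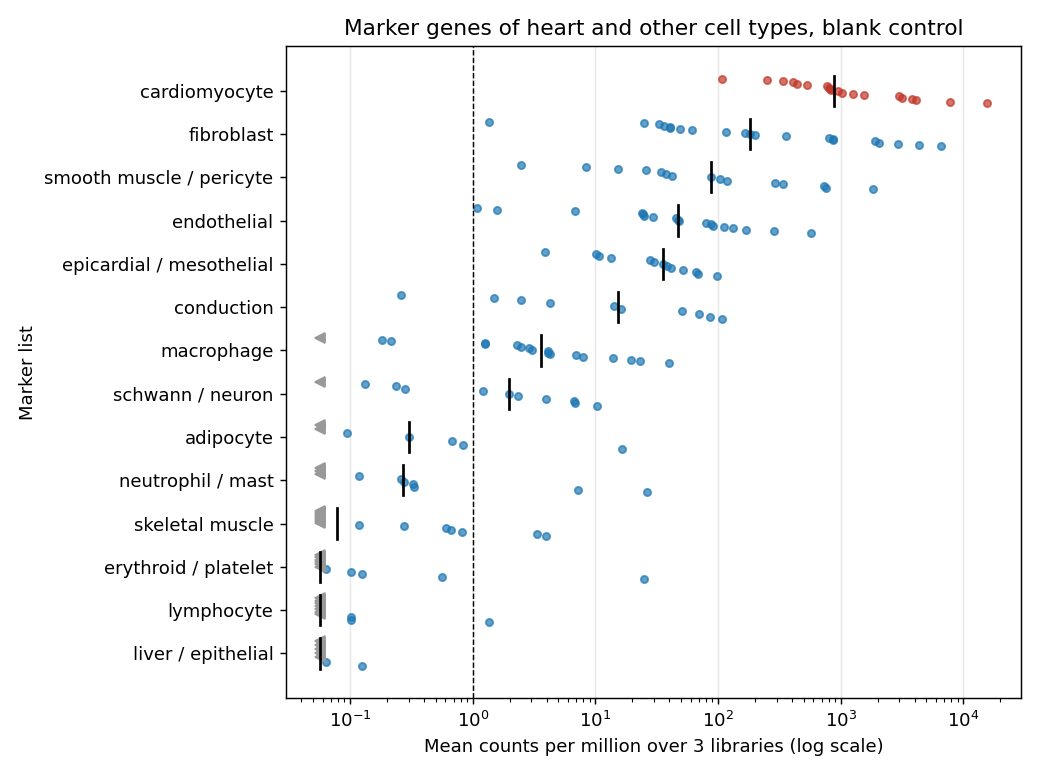
Mean level over the 3 libraries (x axis, CPM, log scale) of each marker gene in 14 lists (y axis), with black bars at list medians and a dashed line at 1 CPM. Grey triangles are genes below 0.0564 CPM, the value of 3 counts over the 3 libraries, drawn at that value. Lists run from cardiomyocyte markers, all above 100 CPM, to liver and epithelial markers, the highest of which, Afp, stood at 0.126 ± 0.171 CPM.

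Markers of blood cells were low or absent. Macrophage markers were detectable, with 14 of 18 at 1 CPM or more in each library but a median of 1.18 CPM per kb, above 14.0% of detected genes; Lyz2, lysozyme, had 42.5, 35.2 and 41.4 CPM, Csf1r, the receptor for colony-stimulating factor 1, 13.9, 12.8 and 14.7 CPM and Adgre1, the F4/80 antigen, 7.18, 8.12 and 8.29 CPM. Of 10 lymphocyte markers none reached 1 CPM in all 3 libraries and 5, among them Cd4, Cd8a and Rag1, had 0 counts, while the T cell receptor gene Trac had 0.962, 1.44 and 1.67 CPM. Of the neutrophil and mast cell list, Kit (26.3 ± 1.08 CPM) and the mast cell protease gene Mcpt4 (7.21 ± 0.7099 CPM) reached 1 CPM, while S100a9, Ly6g and Elane had 0 counts.

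Red cell genes were near 0: the adult globins Hba-a1 and Hbb-bs had 3, 0 and 2 counts and 0, 3 and 4 counts, Slc4a1, the band 3 anion exchanger, had 0, and Hba-a2 and Hbb-bt, which share most of their words with the first pair, also had 0. Pf4, a platelet chemokine gene also made by some macrophages, was an exception in that list at 24.1, 23.4 and 27.6 CPM. The master regulators of skeletal muscle Myod1, Myog, Myf5 and Myf6 and the satellite cell factor Pax7 had 0 counts. Liver genes (Alb and Apoa1 at 0, Afp at 5, 0 and 1 counts) and the epithelial genes Epcam and Cdh1 were at or near 0. Of 7 adipocyte markers Cidea alone reached 1 CPM (16.5 ± 1.11 CPM), and of 11 Schwann cell and neuron markers 7 did, the most counts falling to the tubulin gene Tubb3 at 10.3 ± 0.796 CPM.

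Conduction system markers were uneven. Besides Irx3 and Gjc1 (70.2 ± 1.66 CPM), the trabecular and atrial growth factor gene Bmp10 had 50.6 ± 6.096 CPM and Cntn2, a contactin of Purkinje fibres, 16.3 ± 1.89 CPM. Tbx3, a repressor that maintains nodal cells, had 14.2 ± 0.506 CPM and Shox2, of the sinus node, 2.47 ± 0.609 CPM. Isl1 had 0.261 ± 0.0336 CPM. Scn10a, a sodium channel gene of nerve and conduction tissue named after its value was seen, had 47.2 ± 2.29 CPM.

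The core cardiac transcription factors were present together. Of 20 factors listed 18 reached 1 CPM, and Hand1 (0.532 ± 0.0959 CPM) and Isl1 did not. Tead1, the partner of YAP, had 495, 528 and 462 CPM, Tbx20 441, 431 and 366 CPM, Mef2a 340.0, 342 and 309 CPM and Gata4, a zinc finger factor of heart development, 197, 192 and 199 CPM. Mef2d and Gata6 had 189 ± 11.8 and 151 ± 13.8 CPM.

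Of the receptors for growth factors and hormones, those with the most counts were Igf2r, which clears IGF2 and sorts lysosomal enzymes (572, 611 and 539 CPM), Fgfr1 (256, 259 and 275 CPM) and Chrm2, the muscarinic receptor of the vagus (224, 228 and 199 CPM). Igf1r, Nr3c1 (the glucocorticoid receptor) and Insr had 172 ± 11.7, 99.4 ± 7.23 and 93.2 ± 7.03 CPM. The beta1-adrenergic receptor gene Adrb1 had 29.1, 30.8 and 30.4 CPM.

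In the list of immediate early and dissociation genes all 22 reached 1 CPM and 17 lay above the reference level per kb. The list median of 14.6 CPM per kb was above 75.4% of detected genes. The most counts fell to Hsp90aa1 (557 ± 17.8 CPM), the haem oxygenase gene Hmox1 (166 ± 8.13 CPM) and Egr1 (146, 161 and 148 CPM). Of genes often raised by tissue dissociation, Fos had 9.24, 9.81 and 9.91 CPM, Fosb 2.68 ± 0.383 CPM and the heat shock genes Hspa1a and Hspa1b 4.18 ± 0.387 and 6.23 ± 0.727 CPM, these last sharing 56.5% and 49.9% of their words. These 4 genes lie outside the first 6 of their list and were named after their values were seen. The chaperone gene Hspa5 (734 ± 19.9 CPM) and Vegfa (269 ± 7.25 CPM) had the most counts in the list of hypoxia and endoplasmic reticulum stress. Interferon-related genes ranged from B2m, the light chain of class I antigens (1005, 807 and 789 CPM), through Irf7 (156, 149 and 150.4 CPM) to Ifnb1 with 0 counts.

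Noncoding RNAs took small shares, lincRNAs 0.359% ± 0.0224 of the counts. Malat1 and Neat1, which are kept in the nucleus, had 1473, 1385 and 1142 CPM and 253, 283 and 259 CPM, and the imprinted Meg3 103 ± 4.51 CPM. The small nuclear RNA Rn7sk, which has no polyA tail, had 1.35, 1.34 and 2.65 CPM, with 61.2% of its words shared with copies, and the telomerase RNA Terc had 0 counts. The labels name both ribosomal RNA depletion and polyA RNA, and whether transcripts without a tail were kept was not tested.

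Each library held transcripts of both sexes' marker genes. Xist, the X-inactivation RNA of female cells, had 325, 375 and 288 CPM, and the Y-linked genes Ddx3y, Eif2s3y, Kdm5d and Uty had 37.01, 39.8 and 33.1, 23.99, 23.3 and 22.3, 12.7, 15.005 and 11.7 and 12.1, 13.7 and 11.3 CPM. The highest library exceeded the lowest by 1.305 times for Xist and 1.201 times for Ddx3y. Whether animals were pooled is not stated.

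The 3 libraries were much alike. Over the 13326 detected genes their log2 CPM correlated at 0.993 to 0.994 (Pearson) across genes, which are not independent replicates. For 9595 genes with a mean of at least 10 CPM the SD was a median of 5.66% of the mean, where counting error alone gives 3.67%, and 94 genes exceeded 20%. A chi-square comparison of 2 libraries over genes with at least 100 counts gave 6.90 to 7.94 per degree of freedom, so no pair of libraries was alike within counting noise, as a library entered more than once would be. The biological coefficient of variation estimated by edgeR over the 3 libraries was 6.997%.

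Of the 10 most variable genes 9 had copies; how many of all 9595 genes have copies was not counted. Among genes of at least 10 CPM the 10 with the largest SD over mean included Rps27rt, a copy of a ribosomal protein gene (81.8, 20.4 and 20.7 CPM), 5 pseudogenes, among them Gm28661 (184, 54.9 and 44.1 CPM), a nuclear copy of mt-Co2, and mt-Co2, mt-Co3 and mt-Atp6 themselves. These 9 shared 64.4% to 100% of their words with other genes. The tenth, mt-Nd6, the mitochondrial message of the opposite strand, shared 0% and had 727, 267 and 223 CPM, an SD of 68.8% of its mean where counting gives 1.19%. Replicate 1 was the high library for mt-Nd6, Gm28661, mt-Co3, mt-Atp6 and Rps27rt.

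**Figure D5:**
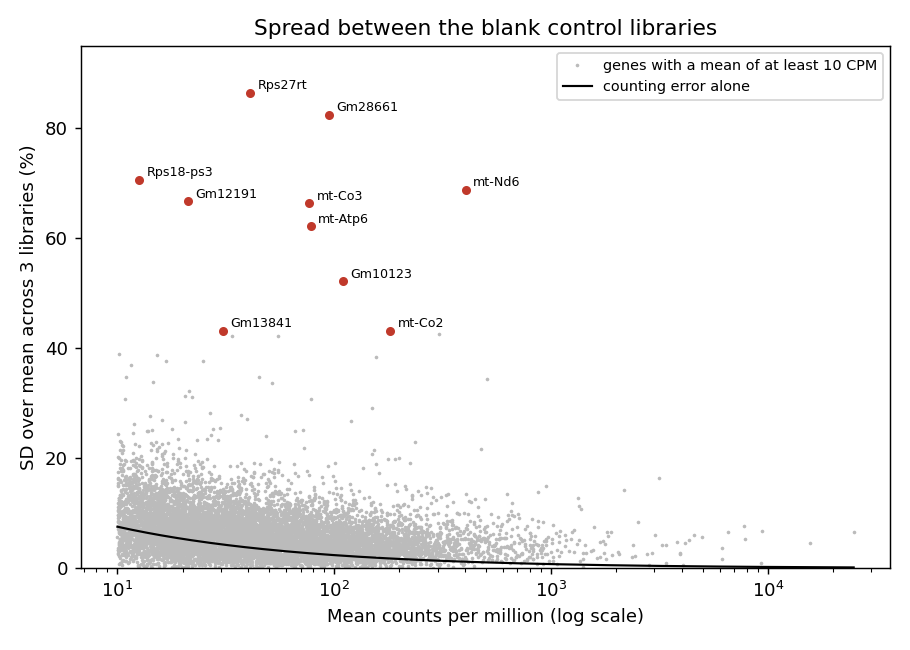
SD as a percent of the mean over the 3 libraries (y axis) against mean CPM (x axis, log scale) for 9595 genes of at least 10 CPM, with the line that counting error alone gives and the 10 most variable genes in red. mt-Nd6 stands at 68.8%, while the median gene stands at 5.66%.

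Smaller differences followed gene length. For the 1156 genes with over 10 kb of exon, replicate 2 lay a median of 0.06 above the gene's own mean on the log2 scale and replicate 3 lay -0.05 from it, and for the 273 genes under 1 kb the values were -0.06 and 0.05. Replicate 1 lay 0.022 from that mean for the genes under 1 kb and -0.004 for those over 10 kb. Ttn and Ryr2, both very long, were highest in replicate 2 (2877, 3761 and 2847 and 984, 1119 and 975 CPM). Replicate 2 also had the largest share of reads outside annotated genes, 6.55% against 5.85% and 5.88%; the part of either in the levels above was not tested.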

How the data were processed

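The deposited table holds whole-number counts per Ensembl gene, not normalized. Per the submitters' processing notes the authors used FastQC, Trimmomatic, STAR and featureCounts with the build mm10; versions are not given there. The table ends with 5 lines named as HTSeq names them, so the counting program is not settled, and whether strand was used is not stated. These lines (16.6% to 16.9% of all counts) were dropped. Per the labels' protocols, libraries were directional and ribosomal RNA was depleted.

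Of 55487 identifiers, 55227 matched GENCODE M21 (GRCm38, mm10), the source of symbols, positions and exon lengths. For symbols with 2 identifiers the one with more counts was used. CPM, CPM per kb of the union of exons, shares and SDs were computed in Python 3.11.15; edgeR 4.0.16 and DESeq2 1.42.0 gave alternative scalings, and edgeR the dispersion. Uncertainty from copies was measured as the percent of a gene's 100-base words found, on either strand, in transcripts of another gene, and as the percent of its exon bases covered by another gene's exons. The calculations were tested on simulated data.

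No groups were compared and no test between groups was made, because the members form a single group of 3; pairs of libraries were compared with a chi-square statistic against counting noise alone. The 41 gene lists (597 symbols, 594 found) and 36 pairs were written by hand, and members and lists were chosen with earlier results of these data known. Named were the 25 genes with the highest CPM and 15 with the highest CPM per kb, the genes of all pairs, the marker genes, up to 6 of each other list with those at 0 counts, and the 10 with the largest SD over mean. Some genes that the rule names are not reported here. A gene at 0 counts was given a limit of 3 counts over the 3 libraries (0.0564 CPM), which covers counting error only, since the reads carry no molecular identifiers.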

Additional observations from a re-analysis of the deposited data

How the results depend on the processing

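The number of detected genes, the number of listed genes detected and the number of pairs led by the first gene stayed within 1.5 times their value under the alternatives run for each, among them other CPM thresholds, TMM or DESeq2 scaling, other lengths and leaving out each replicate in turn. The median SD over mean did so under both scalings and a minimum of 50 CPM. With protein-coding genes only the chromosome M share moved by less than its SD (to 6.49%). The share of the filament and Z-disc lists and the matrix share moved by more. With genes of chromosome M left out, the filament and Z-disc share became 6.74% and the matrix share 4.53%. With protein-coding genes only they became 6.45% and 4.34%. Myh6 made up 98.4% of its pair without a length correction and 98.5% with the longest transcript. Of the other isoform shares, 5 changed order without a length correction: Myl2 to 73.7%, Kcnj2 to 53.4%, Eno3 to 25.4%, Pgam2 to 32.5% and Cox7a1 to 42.4%. With the longest transcript Myl2 (65.0%), Eno3 (30.7%) and Cox7a1 (49.999%) changed order. Leaving out each replicate in turn put Myom2 between 49.5% (without replicate 2) and 50.4% (without replicate 1, the order changed). Over the 35 pairs other than Myh6 and Myh7, 37 alternative values moved by more than their SD in the same order and 129 by less. The 129 include the values with a replicate left out, unless the order changed. Dropping a library cannot shift a mean by as much as the SD of the same libraries. The 129 therefore do not measure stability to leaving out a replicate. The summed levels of 11 gene lists moved by more than their SD when genes of chromosome M were left out of the total and by less under TMM or DESeq2 scaling. For these levels too, leaving out a replicate could not give a move of more than the SD. No paired analysis was possible because the result comes from no test between groups. Values of genes with near-identical copies or overlapping annotations are limited by the counting, and genes under about 1 CPM by depth.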
